A study of Mus musculus with 6 samples.

Results

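The genes described here encode the subunits of the oxidative phosphorylation system, read from 184 probe sets for 92 genes, of 34945 probe sets with a single gene symbol for 18193 genes. They were chosen by symbol (those that begin with Ndufa, Ndufb, Ndufc, Ndufs or Ndufv, with Uqcr, Cox4 to Cox8 or Atp5, the genes Sdha to Sdhd, Cyc1 and Cycs) and sorted into complexes by the same prefixes. This gave 36 genes of complex I, 8 complex I assembly factors (the Ndufaf symbols, which share the prefix but are not subunits), 4 genes of complex II, 9 of complex III, cytochrome c itself, 17 of complex IV and 17 of complex V. The prefix puts Ndufa4, now usually counted with complex IV, and its relative Ndufa4l2 in complex I, and puts the supercomplex factor Cox7a2l in complex IV. Ndufs6, Ndufa11 and Cox7b carried no single-symbol probe set and were not analysed here as genes.

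RNA came from whole lateral ventricle choroid plexus, the epithelial tissue that secretes cerebrospinal fluid, of male mice of the outbred CD1 stock, 3 aged 18 months and 3 aged 2 months. All mice were untreated as far as the labels say, and both plexuses of a mouse were hybridised to an array of their own, which makes the mouse the replicate. Levels are log2 intensities on Affymetrix arrays. They are comparable between mice for 1 probe set but not between genes.

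Oxidative phosphorylation takes place in the inner mitochondrial membrane. Complexes I and II pass electrons from NADH and succinate to ubiquinone, complex III hands them to cytochrome c, complex IV delivers them to oxygen, and the proton gradient built on the way drives ATP synthesis by complex V. The plexus epithelium is packed with mitochondria, since ion transport for fluid secretion consumes much ATP. Most subunits are encoded in the nucleus and several of complex IV exist as isoforms that differ between tissues.

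The arrays were of like overall level, with medians from 5.56 to 5.65. Control probe sets for bacterial transcripts that gauge background had a highest mean of 4.51. The epithelial identity of the tissue held in every mouse, the summed level of the 14 epithelial markers tested (out of 16 listed) lying between 16.28 and 16.39. The sums were 16.29, 16.29 and 16.28 at 18 months and 16.38, 16.39 and 16.32 at 2 months, slightly lower in every older mouse. Of the 14 markers, 5 lay above and 9 below 0, with ranges separate for 1 higher and 3 lower. Neuron markers (13 of 14 tested) varied far more, with sums of 11.46, 12.41 and 13.22 at 18 months and 12.02, 11.32 and 13.04 at 2 months, and these ranges crossed between ages. The summed pituitary markers separated the ages (3 of 7 tested), with sums of 10.88, 10.60 and 9.64 at 18 months and 8.06, 8.43 and 7.91 at 2 months. Growth hormone, Gh, differed most among them, by 4.98 (SE 0.45). Pomc also had separate ranges, higher at 18 months (1.34, SE 0.42), while those of Lhb overlapped (-0.04, SE 0.27). Of the markers below the filter, Prl and Cga had separate ranges, higher at 18 months, and Fshb and Tshb overlapped. Of the macrophage and microglia markers, 10 of the 12 tested lay above 0 at 18 months, with sums of 12.54, 12.11 and 12.47 against 11.61, 11.86 and 12.35. The part of pituitary cells and macrophages in the results below was not tested, and a fit with the neuron markers is given where it bears on a result. The 3' to 5' difference of the Gapdh control lay between 1.24 and 1.67 in the 6 arrays.

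Of the 92 genes, 91 were bright enough to test, and 0 differed between ages after adjustment over all 12681 genes tested (limma, lowest adjusted p = 0.672), as was the case for 0% of all genes. Cox8b, a muscle and heart isoform of a small complex IV subunit, was the 1 gene above 0 with an unadjusted p under 0.05, and Ndufs5, an accessory subunit of complex I, the 1 below 0. That is 1.1% of the genes on each side, against 4.02% of all genes tested above 0, 3.03% below 0 and 7.05% on either side. An ordinary 2-sample test gave 0 after adjustment, and 4 above and 4 below 0 without it. The shares of all genes just given are those of limma. By the ordinary test slightly fewer of all genes had an unadjusted p under 0.05 than by limma. The median difference over the 91 genes was -0.03 on the log2 scale, against 0.00 for all genes tested, with 41 above and 50 below 0. Centred instead on the epithelial markers, the median was 0.12, and that scaling moved the median of all genes to 0.15. The same scaling put the median of every complex, of cytochrome c and of the assembly factors above 0.

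The measurements bound the differences in array intensity closely. For 85 of the 91 genes the 95% confidence interval of the age difference lay wholly within a 2-fold change in either direction, which held for 63.5% of all genes tested. It lay within 1.5-fold for 57 genes, or 62.6%, against 20.1% of all genes. Brighter genes were measured more precisely, and among the 872 genes tested with a mean log2 of at least 11 the share within 1.5-fold was 62.3%. Of the 91 genes, 70 were that bright, and 54 of these, or 77.1%, lay within 1.5-fold. Their median level was 12.7, against 11.75 for the 872. The median size of the difference was 0.10 for the oxidative phosphorylation genes and 0.21 for all genes. Among the bright genes it was 0.09 for the 70 and 0.11 for the 872.

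The ranges of both ages were separate for 18 genes, 9 lying higher and 9 lower at 18 months. This is 19.8%, against 13.3% of all genes tested (7.06% higher, 6.25% lower) and 20.2% of the bright ones. In bulk tissue, fewer cells of a type and less RNA per cell cannot be told apart.

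**Figure D1:**
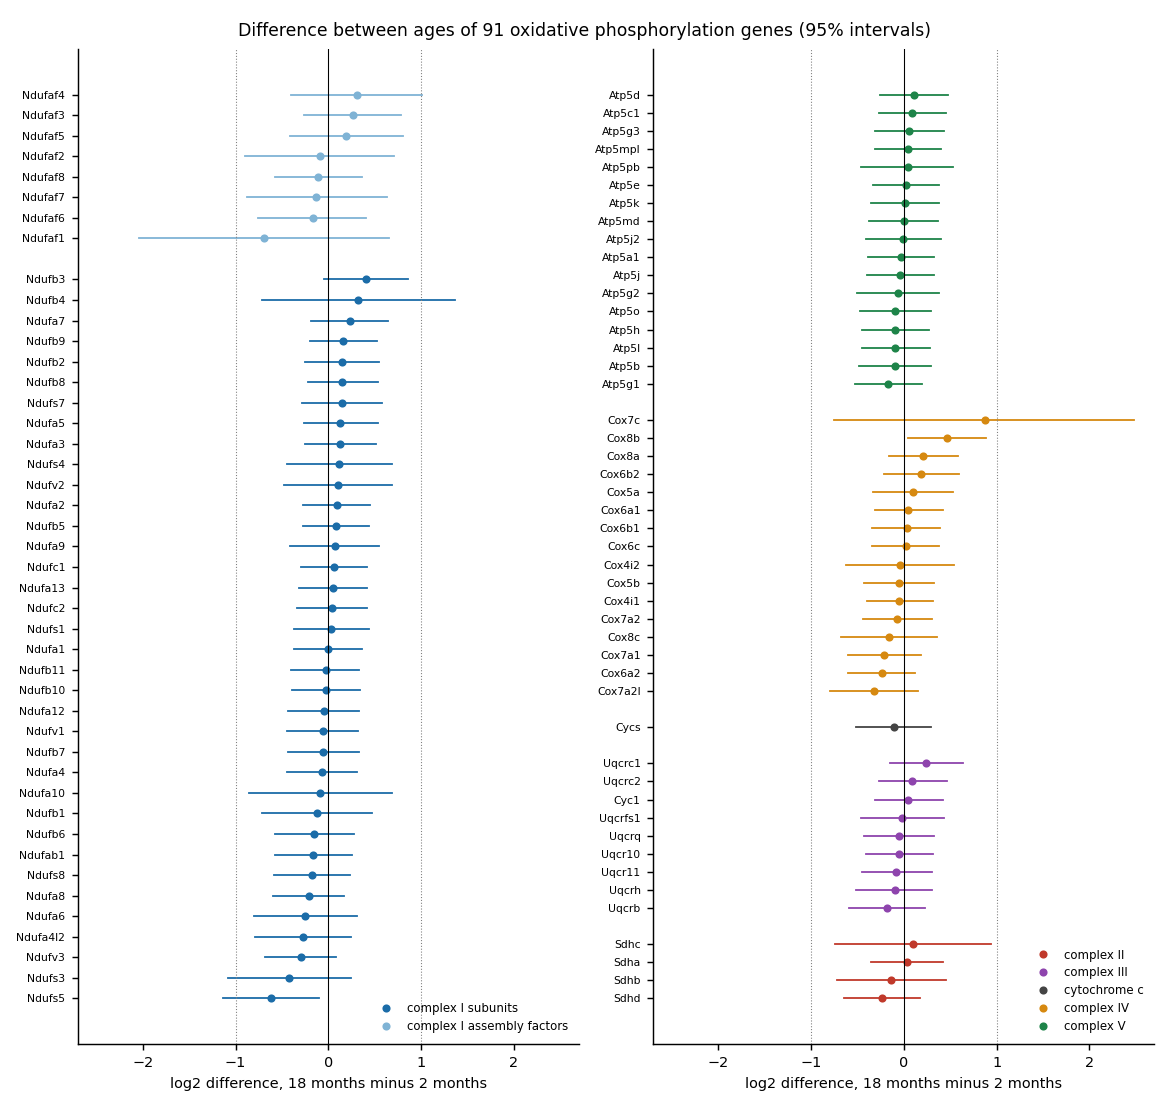
Log2 difference between 18 and 2 months (x axis) for each of the 91 genes tested, by complex, with 95% confidence intervals from limma as bars (3 mice an age) and dotted lines at a 2-fold change. The 17 complex V genes lie between -0.17 and 0.11, and Cox8b and Ndufs5 are the genes whose intervals leave out 0.

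Complex I gave 36 genes tested, with a median difference of 0.02, 18 above and 18 below 0. Its catalytic arm binds NADH and carries the flavin and the iron-sulfur clusters, and the ranges of all its core subunits below overlapped between ages in their brightest probe sets. Ndufv1, the flavin and NADH binding subunit, differed by -0.06 (SE 0.16, interval -0.45 to 0.32). Ndufs1, the largest iron-sulfur subunit, differed by 0.03 (SE 0.17), with 9.76 ± 0.18 at 18 months and 9.73 ± 0.06 at 2 months (SD, n = 3 each). Ndufv2 gave 0.10 (SE 0.24), Ndufs7 0.15 (SE 0.18) and Ndufs8 -0.18 (SE 0.17), all iron-sulfur proteins. The second probe set of Ndufs7 had 10.66, 10.99 and 10.86 in the mice aged 18 months and 10.29, 10.39 and 10.38 in those aged 2 months. These ranges were separate, with a difference of 0.48 (limma unadjusted p = 0.0304, adjusted p = 0.728 over all probe sets). Ndufs3, a core subunit of the arm that leads to ubiquinone, had 12.06, 11.62 and 11.36 in the mice aged 18 months and 12.01, 12.52 and 11.77 in those aged 2 months. Its ranges overlapped, and the difference of -0.42 (SE 0.28, interval -1.08 to 0.24) was -0.05 without the arrays at both ends of the first principal component (18-month replicate 3 and 2-month replicate 2).

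Ndufs5, an accessory subunit on the side of the complex that faces the intermembrane space, gave log2 intensities of 8.52, 8.40 and 7.86 in the older mice and 8.90, 8.94 and 8.81 in the younger ones. The lowest mouse was 18-month replicate 3, and the 2-month mice lay together above all of the older ones. The difference was -0.62 (SE 0.22, interval -1.14 to -0.10, limma unadjusted p = 0.0256, adjusted p = 0.672). It was -0.42 without 18-month replicate 3 and between -0.60 and -0.75 without any other mouse, and it had an unadjusted p under 0.05 without 18-month replicate 1 or 2 or 2-month replicate 3 but not without the other mice. Another probe set, which carries both Ndufs5 and its pseudogene Ndufs5-ps and so belongs to neither alone, had 12.21 ± 0.04 at 18 months and 12.01 ± 0.02 at 2 months (SD, n = 3 each), with separate ranges. There the older mice lay above, by 0.20 (SE 0.16), so the probe sets that read this locus disagree in direction.

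Ndufb3, an accessory subunit of the membrane arm, lay the other way, with 12.26, 11.88 and 11.92 in the older mice and 11.55, 11.50 and 11.81 in the younger ones. The ranges were separate by a small gap (difference 0.40, SE 0.19, limma unadjusted p = 0.0741). Ndufv3, an accessory subunit attached to the flavin-bearing arm, had 12.98, 13.05 and 12.81 against 13.26, 13.27 and 13.22, again separate (difference -0.30, SE 0.16, interval -0.68 to 0.08). The younger mice differed little among themselves for this gene (SD 0.03, n = 3). Ndufb4 gave 0.32 (SE 0.43) from a probe set with a mean of 5.02 at 2 months, near the filter. Ndufab1, the mitochondrial acyl carrier protein that also serves lipoic acid synthesis, gave -0.17 (SE 0.17). In all, 6 of the 36 genes had separate ranges higher and 3 lower, against 7.06% higher and 6.25% lower of all genes tested and 20.2% on either side among the bright ones.

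The 8 assembly factors, which build complex I and leave it again, were measured less precisely, with a median SE of 0.27 against 0.16 over all 91 genes. Their median difference was -0.10, with 3 above and 5 below 0. Ranges were separate for 0 of the 8, against 13.3% of all genes tested, which says little over so few genes. Ndufaf1, a chaperone of the membrane arm, had 6.01, 6.62 and 6.83 in the older mice and 7.59, 5.90 and 8.05 in the younger ones. The 2-month mice spread over more than the difference between ages (-0.69, SE 0.56). Without 2-month replicate 2 the difference was -1.33 (limma adjusted p = 0.605), and -0.26 when 2-month replicate 3 was left out instead. Ndufaf4, which acts at the ubiquinone arm, gave 0.31 (SE 0.29) from its brightest probe set and -0.27 from its other one. Ndufaf3, its partner, gave 0.26 (SE 0.22) and Ndufaf6 -0.17 (SE 0.24). The median of this small group turned to 0.09 without 18-month replicate 3 and to 0.20 without both arrays at the ends of the first component.

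Complex II, which is also an enzyme of the citric acid cycle, had a median difference of -0.05 over its 4 genes. Sdha, the flavoprotein that oxidises succinate, had 11.84, 11.84 and 12.04 in the older mice and 11.97, 11.85 and 11.79 in the younger ones (difference 0.03, SE 0.16). The ranges crossed. Sdhb, the iron-sulfur subunit, gave -0.14 (SE 0.24) and Sdhc, a membrane anchor, 0.10 (SE 0.35), with 12.26, 11.52 and 11.46 against 12.28, 11.39 and 11.28. In this probe set of Sdhc the first replicate of each age stood about as far above the others, so its spread within an age exceeded the difference between ages. The second probe set of Sdhc had no such step, with 11.40, 11.25 and 11.30 against 11.33, 11.34 and 11.34. Sdhd, the other membrane anchor, had 11.35, 11.18 and 11.28 against 11.47, 11.35 and 11.69, ranges that meet at the precision printed (difference -0.24, SE 0.17). Its second probe set also lay lower, with 10.78, 10.66 and 10.53 against 11.20, 10.95 and 11.57 (difference -0.58, SE 0.22, limma unadjusted p = 0.0334, adjusted p = 0.742 over all probe sets). The median of complex II was -0.22 without 18-month replicate 1.

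Complex III genes had differences from -0.18 to 0.24, with a median of -0.05. Ranges were separate for 0 of the 9, against 13.3% of all genes tested and 20.2% of the bright ones, a share that means little over so few genes. Uqcrc1, a core protein of the matrix side, had 10.31, 10.07 and 10.36 in the older mice against 9.97, 10.08 and 9.97 in the younger ones, the highest of the younger mice lying just above the lowest of the older ones (difference 0.24, SE 0.17). Its partner Uqcrc2 gave 0.09 (SE 0.15). Uqcrfs1, the Rieske iron-sulfur protein, gave -0.02 (SE 0.19) and Cyc1, the heme protein that meets cytochrome c, 0.05 (SE 0.15). Uqcrb and Uqcrh, small subunits, gave -0.18 (SE 0.17) and -0.10 (SE 0.17). Cycs, the mobile carrier cytochrome c, had 12.27, 12.26 and 11.98 in the older mice and 12.32, 12.18 and 12.35 in the younger ones (difference -0.11, SE 0.17, interval -0.52 to 0.29). Only 18-month replicate 3 lay below the younger mice.

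Complex IV includes isoforms made in few tissues. Its 16 genes tested had a median of -0.01, 8 above and 8 below 0, and ran from -0.32 to 0.87, the upper end being Cox7c. Cox7b2, a testis isoform, was below the filter in all 6 mice, with means of 3.21 and 3.10. Among the broadly made subunits, Cox8a and Cox7c are described further on. Cox4i1, the regulatory subunit to which ATP binds, had 12.92 ± 0.01 at 18 months and 12.97 ± 0.04 at 2 months (SD, n = 3 each). Its difference of -0.05 (SE 0.15) had an interval from -0.40 to 0.31. Cox5a gave 0.10 (SE 0.18), Cox5b -0.05 (SE 0.16), Cox6a1 0.05 (SE 0.15), Cox6b1 0.03 (SE 0.15) and Cox7a2 -0.07 (SE 0.15).

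Cox8b had log2 intensities of 12.86, 12.99 and 12.90 at 18 months and 12.21, 12.58 and 12.55 at 2 months. The older mice were close together and lay above all of the younger ones, of which replicate 1 was the lowest. The difference was 0.47 (SE 0.18, interval 0.04 to 0.89, limma unadjusted p = 0.0348, adjusted p = 0.682), a 1.38-fold higher mean. It ranged from 0.35, without 2-month replicate 1, to 0.54 when single mice were left out, and had an unadjusted p under 0.05 in 1 of those 6 fits. With the neuron markers as a covariate it was 0.46. Cox8a, the widely made isoform of the same subunit, had 12.32, 12.16 and 12.23 against 11.99, 11.98 and 12.11, also separate, with a difference of 0.21 (SE 0.15). Both of its probe sets above the filter gave this direction (0.21 and 0.25). The ratio of Cox8b to Cox8a within an array, in log2 units, was 0.54, 0.83 and 0.67 at 18 months and 0.22, 0.61 and 0.44 at 2 months. These ranges overlapped (difference 0.26, exact permutation p = 0.2, two-sided, adjusted p = 0.45 over 6 isoform pairs, smallest possible p 0.1).

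Markers of muscle were examined beside Cox8b. Of 12 listed, 5 were bright enough to test. Of the cardiac markers, Actc1, Myh6 and Tnnt2 lay at or near background (from 2.25 to 4.91 in the 6 mice), and Tnni3, cardiac troponin I, was just above the filter, with 5.16 ± 0.39 at 18 months and 5.10 ± 0.02 at 2 months (SD, n = 3 each). Myh7, a slow muscle and heart myosin, was well above the filter, with 10.52, 9.87 and 9.90 in the older mice and 9.59, 9.22 and 9.99 in the younger ones. Its ranges overlapped (difference 0.49, SE 0.28). The other markers tested did not share this difference, with Acta2 at -0.46 (SE 0.28), Tagln at -0.04 (SE 0.20) and Mylpf at 0.03 (SE 0.34). Acta1, Ckm, Myh11 and Cnn1 were below the filter, with overlapping ranges. The summed level of the 5, of which Myh7 was by far the brightest, lay between 10.18 and 10.73 at 18 months and between 9.71 and 10.35 at 2 months. The part of muscle markers in the Cox8b result was not tested.

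Other isoforms of restricted distribution lay on both sides of 0, and none was tested against Cox8b. Cox7a1, a heart and muscle isoform, had 10.23, 10.05 and 10.24 in the older mice against 10.26, 10.37 and 10.52 in the younger ones, separate in the other direction (difference -0.21, SE 0.16). Cox6a2, of the same tissues, had 6.52, 6.48 and 6.58 against 6.82, 6.76 and 6.73, with little spread within either age (SD 0.05 in each, n = 3). The difference was -0.24 (SE 0.15, limma unadjusted p = 0.155) and an ordinary 2-sample test, which does not share spread between genes, gave an unadjusted p of 0.00334 and an adjusted p of 0.596. Against Cox6a1 in the same array its log2 ratio was -7.04 ± 0.05 at 18 months and -6.75 ± 0.06 at 2 months (SD, n = 3 each), separate, with an exact permutation p of 0.1, the smallest possible, and 0.45 after adjustment over the 6 pairs. Cox4i2, an isoform known from lung and oxygen sensing cells, gave -0.04 (SE 0.24), Cox6b2, known from testis, 0.19 (SE 0.17), and Cox8c, also of testis, -0.16 (SE 0.22). Ndufa4l2, a hypoxia-induced relative of Ndufa4, gave -0.27 (SE 0.22) and Ndufa4 -0.07 (SE 0.16).

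Cox7a2l, which joins complexes III and IV into supercomplexes, had 11.81, 11.82 and 11.47 in the older mice against 12.28, 11.91 and 11.89 in the younger ones. The ranges were separate, though by little, with a difference of -0.32 (SE 0.20, limma unadjusted p = 0.147). Its 3 probe sets all lay lower at 18 months with separate ranges, by -0.32, -0.47 and -0.58, the last with an unadjusted p of 0.0388 (limma, adjusted p = 0.747 over all probe sets). They share the transcript and the mice and are not independent. Cox7c had the largest difference of the 91 genes, 0.87, but an SE of 0.68. Its values were 6.54, 6.89 and 7.52 against 7.18, 4.56 and 6.61, and without the low 2-month replicate 2 the difference was 0.09.

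**Figure D2:**
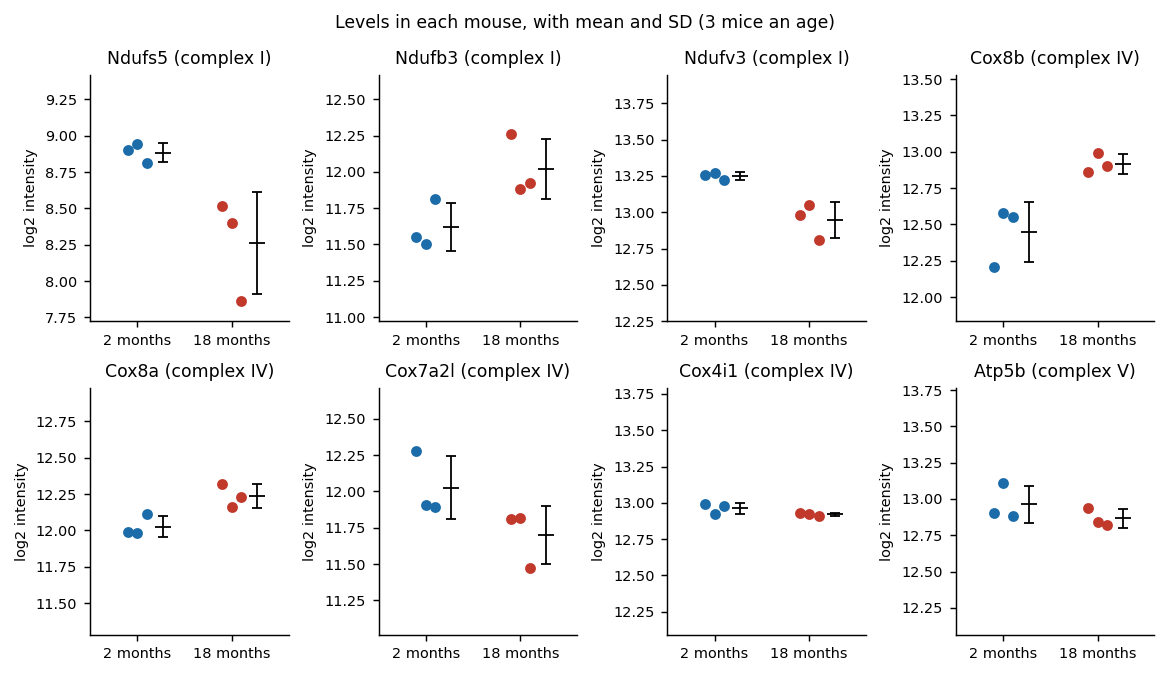
Log2 intensity (y axis, each panel spanning the same height) in each of the 3 mice at 2 months and at 18 months for 8 genes, with the mean and SD beside the points. Ndufs5, Ndufv3 and Cox7a2l lie lower and Ndufb3, Cox8a and Cox8b higher at 18 months in all mice, while the ranges of Cox4i1 and Atp5b overlap.

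Complex V, the ATP synthase, showed the least variation and was also the brightest group, with a median level of 13.01. All 17 genes had a 95% interval within 1.5-fold of no difference, against 20.1% of all genes tested and 62.3% of the bright ones. The differences ran from -0.17 to 0.11 with a median of -0.01. Ranges were separate for 1 gene higher and 2 lower, or 17.6%, against 13.3% of all genes tested and 20.2% of the bright ones. Atp5a1 and Atp5b, the alpha and beta chains that form the catalytic head, gave -0.03 (SE 0.15) and -0.09 (SE 0.16). Atp5b had 12.94, 12.84 and 12.82 in the older mice and 12.90, 13.11 and 12.88 in the younger ones, with the ages crossing. Atp5c1, the rotor shaft, gave 0.09 (SE 0.15) and Atp5d, beside it, 0.11 (SE 0.15). Of the genes for the membrane ring, which encode the same mature protein, Atp5g1 had 12.88, 12.84 and 13.01 against 13.03, 13.08 and 13.12, separate by a hair (difference -0.17, SE 0.15), while Atp5g2 gave -0.06 (SE 0.19) and Atp5g3 0.06 (SE 0.15). The second probe set of Atp5g1 gave 0.31, the opposite sign. Atpif1, the inhibitor that stops the enzyme from running backwards, is not among the members by its symbol and gave 0.01 (SE 0.16).

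Where a gene had several probe sets, they served as a check on single differences. Of the 184 probe sets 168 were above the filter, with a median difference of -0.03. By limma over 27022 probe sets, 0 passed after adjustment and 7 had an unadjusted p under 0.05 (2 above and 5 below 0), or 4.17%, against 6.47% of all probe sets. Ranges were separate for 37 of them, or 22.0%, against 12.6% of all. The share among bright probe sets alone was not computed, and some genes, such as Cox7a2l and Ndufa7, entered with several of the 37. For 22 of the 48 genes with more than 1 probe set above the filter, another probe set had the opposite sign to the brightest. Among the genes described above, this held for Ndufv2 (others from -0.16 to -0.04), Ndufv1 (from -0.16 to 0.00), Sdhc (-0.02), Uqcrc2 (-0.20) and Cycs (from -0.43 to 0.01). It also held for Cox5a (from -0.04 to 0.00), Cox6a1 (-0.02), Cox6b1 (-0.03) and Atp5a1 (from -0.02 to 0.10), besides Ndufaf4 and Atp5g1. The widest disagreement was in Ndufab1, with 5 probe sets from -0.61 to 0.43. In Uqcr10, a small subunit of complex III, the brightest gave -0.05 and a dim one (5.72 against 6.72) -1.0. By contrast the 5 probe sets of Ndufa7, an accessory subunit of complex I, lay between 0.17 and 0.25, and the 6 of Ndufs8 between -0.38 and -0.12.

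**Figure D3:**
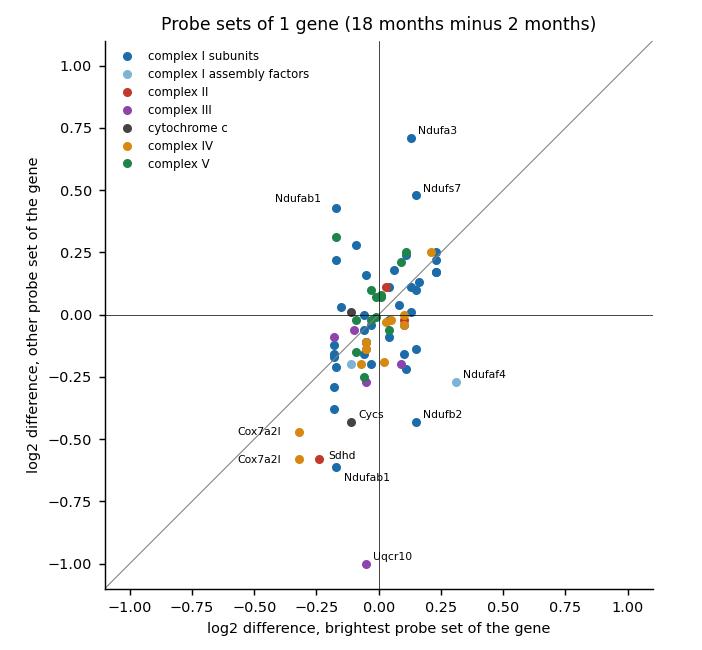
Log2 difference between ages of the brightest probe set of a gene (x axis) against that of each of its other probe sets above the filter (y axis, 77 points, coloured by complex), with the line of equal values. Points off the line, such as those of Ndufab1 and Uqcr10, are probe sets that disagree within a gene, and those of Cox7a2l lie below 0 on both axes.

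The genes varied little from mouse to mouse as a group, and so did all genes tested. The median deviation from each gene's own mean was 0.02, -0.01 and -0.06 in the mice aged 18 months and 0.00, -0.04 and 0.02 in those aged 2 months. Over all 12681 genes tested it was 0.03, -0.03 and -0.02 at 18 months and -0.02, 0.00 and -0.03 at 2 months. Neuron markers deviated by -0.73, 0.04 and 1.06 and by -0.23, -0.58 and 0.62 in the same mice. The mouse with the most neuron signal, 18-month replicate 3, was the lowest over all 91 genes. Next in neuron signal was 2-month replicate 3, which was joint highest over the 91 genes. The part of neuron content in these small deviations was not tested. In 18-month replicate 3 the assembly factors (-0.26), cytochrome c (-0.24) and complex II (-0.17) lay low, complex IV was the highest of the 6 mice (0.04), and complex I (-0.05) was above 2-month replicate 2 (-0.06). With the neuron markers as a covariate the median age difference was -0.02. Markers of multiciliated and ependymal cells, which are also rich in mitochondria, lay lower in every older mouse (-0.35, -0.55 and -0.31 against 0.21, 0.08 and 0.62; 10 of 12 listed tested, 10 below 0). Their summed level was 11.33 to 11.76 at 18 months and 11.80 to 12.07 at 2 months, and their part in the age differences was not tested.

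**Figure D4:**
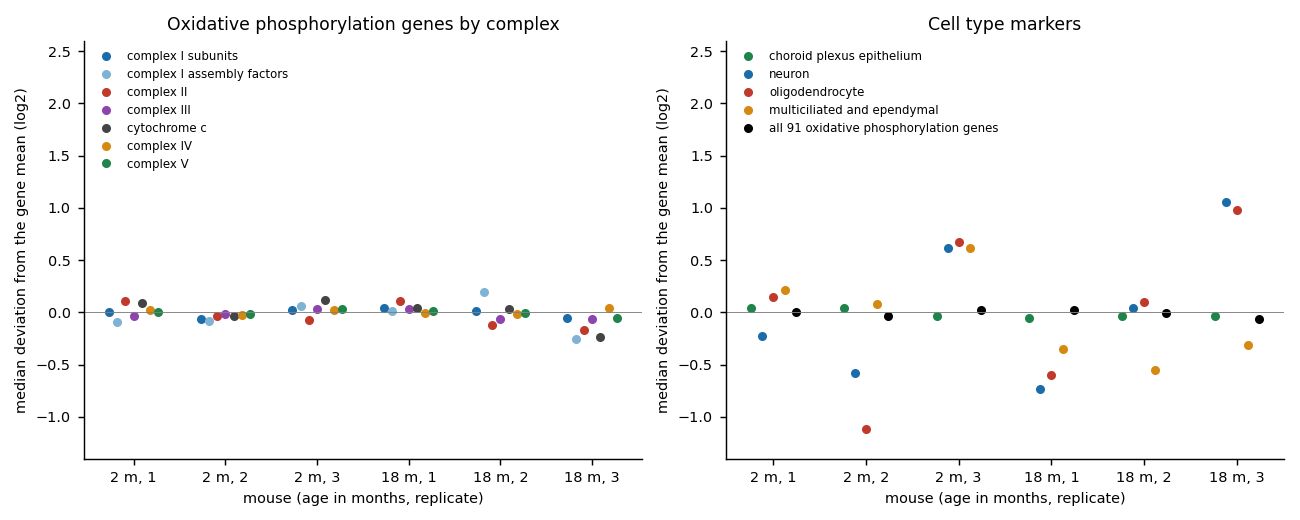
Median deviation (log2) from each gene's mean over the 6 mice, for each complex (left) and for cell type marker lists beside all 91 genes (right), in each mouse by age and replicate, on 1 common scale. The complexes stay within -0.26 to 0.19, while neuron markers span -0.73 to 1.06.

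Promoter sequences are shown for 4 genes. Ndufs5 and Cox8b had the smallest p on either side, and Sdhd lay lower with both of its probe sets. Atp5h, a stator subunit of the ATP synthase, was taken from complex V, where differences were small. It had 13.30, 13.33 and 13.24 at 18 months against 13.43, 13.34 and 13.37 at 2 months (difference -0.09, SE 0.15). These ranges were separate by a hair, lower at 18 months, while those of its other probe set overlapped (difference -0.02). Each is the 250 bases before the RefSeq gene start (build GRCm38.p6), 5' to 3' on the strand of the gene, with matches to motifs of NRF1 (GCGCA, any base, then GCGC) and of ETS factors such as GABP (CCGGAAG), searched on both strands, in capitals. Both factors are known as activators of respiratory genes. The windows are chr4:123718187-123718436 (minus strand, Ndufs5), chr7:140900447-140900696 (minus, Cox8b), chr9:50603850-50604099 (minus, Sdhd) and chr11:115419920-115420169 (minus, Atp5h).
Ndufs5: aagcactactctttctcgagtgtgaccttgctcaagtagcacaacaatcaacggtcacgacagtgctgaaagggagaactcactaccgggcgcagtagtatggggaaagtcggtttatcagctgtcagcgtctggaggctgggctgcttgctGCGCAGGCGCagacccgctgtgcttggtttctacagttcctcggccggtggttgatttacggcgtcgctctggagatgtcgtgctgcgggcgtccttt
Cox8b: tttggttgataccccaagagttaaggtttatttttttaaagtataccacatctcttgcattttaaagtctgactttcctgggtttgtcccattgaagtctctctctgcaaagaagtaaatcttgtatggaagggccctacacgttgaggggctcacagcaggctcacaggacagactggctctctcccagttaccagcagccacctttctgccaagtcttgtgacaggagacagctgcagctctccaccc
Sdhd: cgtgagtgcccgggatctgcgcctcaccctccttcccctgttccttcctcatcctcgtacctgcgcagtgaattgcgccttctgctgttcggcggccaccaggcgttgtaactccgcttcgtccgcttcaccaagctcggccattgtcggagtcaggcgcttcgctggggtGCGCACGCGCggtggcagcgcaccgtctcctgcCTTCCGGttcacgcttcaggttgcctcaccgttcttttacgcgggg
Atp5h: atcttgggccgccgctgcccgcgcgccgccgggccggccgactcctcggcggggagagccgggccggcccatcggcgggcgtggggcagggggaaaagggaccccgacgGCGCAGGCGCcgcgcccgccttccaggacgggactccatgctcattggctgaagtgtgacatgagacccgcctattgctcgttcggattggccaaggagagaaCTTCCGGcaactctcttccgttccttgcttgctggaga
Ndufs5 held an NRF1 match that began 98 bases before the start. Sdhd had one at 79 and Atp5h one at 141, each followed by an ETS match on the opposite strand, at 46 and 38 bases. In the Cox8b window the letters of these motifs did not occur.

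Promoters were found for 75 of the 92 genes. NRF1 letters occurred before 12 of them, or 16.0%, against 8.94% of the 10243 genes tested that had a promoter and 4.23% of all 27025 genes. For the ETS motif it was 14 genes, or 18.7%, against 14.5% and 7.83%. YY1 letters (AAGATGGC) occurred before 1 gene, or 1.33%, against 2.33% of those tested, and those of estrogen-related receptors (TCAAGGTCA) before 1 gene, or 1.33%, against 0.342%. Overlapping matches of different motifs were counted for each. The age difference had a median of 0.02 over the 12 genes tested with an NRF1 match and -0.03 over the 62 without. For the ETS motif these medians were -0.09 over 14 genes and 0.00 over 60.

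Other genes of the pathway were counted by list, beside the 7.05% of all genes tested that had an unadjusted p under 0.05. Of the 32 assembly factors of complexes II to V that were tested (36 listed), 0 had an unadjusted p under 0.05 in either direction, the median being -0.03. Surf1, which assembles complex IV, gave 0.34 (SE 0.16), Atpaf1, which assembles the ATP synthase head, 0.69 (SE 0.34) and Ttc19, of complex III, -0.28 (SE 0.18). Further complex I assembly factors (9 tested) had 0 above and 1 below 0 at an unadjusted p under 0.05, namely Timmdc1, with 8.23 ± 0.22 at 18 months and 8.82 ± 0.33 at 2 months (SD, n = 3 each; difference -0.59, SE 0.23). Tmem126b gave 0.41 (SE 0.18) and Ecsit 0.48 (SE 0.24). Enzymes of the tricarboxylic acid cycle and pyruvate entry (18 tested) had a median of 0.00 and 0 with an unadjusted p under 0.05. Idh3b, a subunit of isocitrate dehydrogenase, came closest at 0.49 (SE 0.21), then the pyruvate carboxylase gene Pcx at 0.19 (SE 0.16) and Ogdh at 0.20 (SE 0.17). Carriers and inhibitors (5 tested) gave 0 as well, with the uncoupling protein relatives Slc25a14 at -0.28 (SE 0.21) and Slc25a27 at -0.51 (SE 0.39) and the ADP/ATP carrier Slc25a4 at 0.14 (SE 0.15).

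Regulators of mitochondrial biogenesis (21 tested of 24 listed) had a median of -0.10, with 7 above and 14 below 0. One gene on each side had an unadjusted p under 0.05, and 0 passed after adjustment. Esrra, an estrogen-related receptor that activates respiratory genes, had 6.35 ± 0.10 at 18 months and 6.96 ± 0.43 at 2 months (SD, n = 3 each; difference -0.61, SE 0.25). Its relative Esrrb had 6.69 ± 0.28 and 5.71 ± 0.58 (difference 0.98, SE 0.32, limma unadjusted p = 0.0206, adjusted p = 0.663). The coactivator gene Pprc1 gave -0.78 (SE 0.35). Of the genes encoded in mitochondrial DNA 1 had a probe set, ND5, a membrane subunit of complex I, with 12.84, 12.67 and 12.71 in the older mice against 13.01, 12.85 and 13.05 in the younger ones. The ranges were separate by a small gap and the difference was -0.23 (SE 0.16, interval -0.61 to 0.15).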

How the data were processed

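Intensities of 45101 probe sets in 6 samples were deposited as 1 table. Per the submitters' processing notes the authors made them with RMA, version not given in the sources used here. Per the labels' protocols RNA was amplified with a Nugen Pico kit, which can distort dim transcripts. The intensities, from 2.47 to 26820.7, were linear, and their log2 was taken. Probe sets were named by the platform annotation; any that carried more than 1 symbol entered no gene value. Symbols checked against RefSeq (GRCm38.p6) needed 0 changes. Each gene was read from its brightest probe set by mean log2, and entered the test where this was 4.92 or more (the 40th percentile of non-control probe sets). Ages were compared with limma 3.58.1 in R 4.3.3 (lmFit, eBayes, two-sided, no covariate, 6.61 degrees of freedom, Benjamini-Hochberg over 12681 genes, threshold 0.05). The fit was checked on 20 simulated sets with the means and spreads of all genes tested and 200 changed genes each. At the same threshold it called 19% of planted 2-fold changes, 83.3% of 4-fold and 96.5% of 8-fold ones. Most 2-fold changes were thus missed over genes of all levels.

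SE and intervals come from that fit. The number of arrays limits precision. Members and lists were chosen with earlier results of these data known, so no list was tested. Genes named are those with an unadjusted p under 0.05, the 2 largest differences each way in a complex, core subunits, tissue isoforms, and up to 3 of each further list; those named besides (Ndufv3, Ndufa7, Ndufab1, Uqcr10, Atp5h, Atpif1) were chosen after their values were seen. Alternatives were other filters, the mean of all probe sets, other scalings, array weights, a neuron covariate, a replicate block, an ordinary 2-sample test and leaving out mice. Permutation tests used scipy 1.17.1.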

Additional observations from a re-analysis of the deposited data

How the results depend on the processing

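With 3 mice an age, precision is limited, most of all for dim probe sets. The count of genes with an adjusted p under 0.05 was 0 in all 18 alternatives. At an unadjusted p under 0.05, the count above 0 (1) was 0 to 1 without single mice, 0 with the replicate block, 4 by the ordinary 2-sample test, 0 without the 2 arrays that end component 1 and 2 with plain _at probe sets alone. The count below 0 (1) was 0 to 1 without single mice, 2 with the mean of all probe sets, 0 with epithelium marker centring, 4 by the ordinary test and 3 with plain _at probe sets. The cause of these changes was not tested. In the settings that raised either count, fewer of all genes had an unadjusted p under 0.05 than in the main fit. Plain _at probe sets alone leave out some genes.

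Epithelium marker centring moved the median of all genes from 0.00 to 0.15, that of the 91 genes to 0.12, and the medians of complexes I, II, III, IV and V and of cytochrome c to 0.16, 0.09, 0.10, 0.13, 0.14 and 0.03. Without single mice the medians ranged from -0.17 to 0.09 for the assembly factors, from -0.22 to 0.03 for complex II, from -0.08 to 0.00 for III, from -0.01 to 0.03 for IV and from -0.04 to 0.04 for V. Without the 2 arrays that end component 1 they were 0.20 for the assembly factors, 0.03 for III and -0.05 for IV, and with the 60th percentile filter IV had 0.02. Of 849 values of the 48 named genes under alternatives, 804 moved by less than 1 SD between mice. Both alternatives that left out these 2 arrays together or used plain _at probe sets were chosen after seeing the data.

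The replicate number showed no clear pairing of the mice. The deviations of same-numbered mice correlated at -0.02, 0.02 and 0.17, and those of mice with different numbers at between -0.15 and 0.14. With the replicate block 0 genes above and 1 below 0 had an unadjusted p under 0.05.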

Other observations

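Probe sets with several symbols belong to no gene above. The pair annotated to Ndufb4 and its copies Ndufb4b and Ndufb4c lay at 12.10 ± 0.05 against 11.95 ± 0.20 and at 11.38 ± 0.05 against 11.20 ± 0.24 (18 and 2 months, SD, n = 3 each). The brighter of the probe sets annotated to Ndufa11 and Ndufa11b had 13.47, 13.35 and 13.38 at 18 months against 13.16, 13.07 and 13.15 at 2 months, so that all older mice lay above all younger ones (difference 0.28, SE 0.16). The one annotated to Ndufs6 and Ndufs6b differed by 0.08 (SE 0.18), and the one annotated to Ndufab1 and a pseudogene of it by -0.26 (SE 0.22).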
